A study of Mus musculus with 8 samples.

Results

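The genes described here are the 55 lysine, glutamate and glutamine tRNA gene rows among the 964 rows of a small RNA table from mouse bone marrow cells. They were chosen by name, as every row named for one of these amino acids and an anticodon, with no condition on level. The set holds 11 copies of tRNA-Lys-CTT, 9 of tRNA-Lys-TTT, 12 of tRNA-Glu-CTC, 8 of tRNA-Glu-TTC, 10 of tRNA-Gln-CTG and 5 of tRNA-Gln-TTG, where the last letters are the anticodon in DNA letters. The remaining rows are 273 tRNA genes of other amino acids and 636 rows of other classes, mostly snRNA and snoRNA.

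Libraries were made from GMLPs, granulocyte-monocyte-lymphoid progenitors sorted from bone marrow, of 4 wild-type (WT) samples and 4 samples carrying iMLL-ENL, an inducible form of the leukaemia fusion of the histone methyltransferase MLL with the elongation factor component ENL. Doxycycline was present during a 3-day culture of WT and iMLL-ENL cells alike, so the controls had the drug but not the fusion. The sources used here do not give the promoter behind the transgene, the age of the mice or whether a sample pools animals. No protein-coding gene was among the rows analysed, so the cell type label could not be set against its markers. The labels do not say that replicates came from separate mice, so each p-value measures only how far these samples spread, and that spread may be technical.

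Each of these 3 amino acids is encoded by a codon ending in A and a codon ending in G. The tRNA with T (U in the RNA) at the first anticodon base, the wobble position, reads the A-ending codon, and the tRNA with C there reads the G-ending codon. In the T-wobble tRNAs of all 3 amino acids that uridine is modified by Elongator, the methyltransferase Alkbh8 and the thiolation enzyme Ctu1-Ctu2, and the C-wobble partners are not substrates. The modification is known to help the ribosome decode A-ending codons. Libraries of short RNA also contain tRNA fragments cut in the anticodon loop, and those of lysine and glutamate tRNAs are among the commonly reported ones. Whole tRNA and fragments were not told apart, since no lengths of reads were analysed.

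Values are RPM, the reads of a row scaled by the total of its library. The limma model tested rows with 10 RPM or more in 4 or more libraries, and a call is an adjusted p (Benjamini-Hochberg over all tested rows or families) under 0.05. The 55 rows summed to 22478 to 35545 RPM per library, an estimated 158837 to 302930 reads. Over all tested rows WT replicate 2 stood apart, with a mean correlation to its own group of 0.908 against 0.955 to 0.994 elsewhere. Results that rest on it are given with and without it. In bulk samples, fewer cells of a type and less RNA per cell cannot be told apart.

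Within lysine and within glutamate, the balance of the isoacceptors differed between the groups, with a smaller part carried by the T-wobble tRNA in iMLL-ENL. This measure compares a pair of tRNAs inside 1 library and does not depend on how that library was scaled. For glutamate, tRNA-Glu-TTC made up 34.8%, 28.2%, 37.0% and 35.4% of the glutamate tRNA reads in WT replicates 1 to 4. In iMLL-ENL replicates 1 to 4 it made up 23.8%, 17.8%, 24.6% and 23.6%. Every iMLL-ENL library lay below every WT library, WT replicate 2 included.

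For lysine, tRNA-Lys-TTT made up 35.3%, 35.2%, 37.3% and 36.4% of the lysine tRNA reads in WT. The iMLL-ENL libraries were at 27.95%, 31.1%, 27.6% and 27.8%, and again the groups did not overlap. For glutamine, tRNA-Gln-TTG made up 34.2%, 32.7%, 33.3% and 31.9% in WT and 32.4%, 30.4%, 32.6% and 32.8% in iMLL-ENL, and the groups overlapped. In WT the 3 amino acids were thus near the same split, with means of 36.1% ± 1.0 for lysine, 33.8% ± 3.9 for glutamate and 33.0% ± 1.0 for glutamine (SD, n = 4). The glutamate mean includes 28.2% in WT replicate 2, beside 34.8% to 37.0% in the other WT libraries. In iMLL-ENL the means were 28.6% ± 1.7, 22.4% ± 3.1 and 32.0% ± 1.1.

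**Figure D1:**
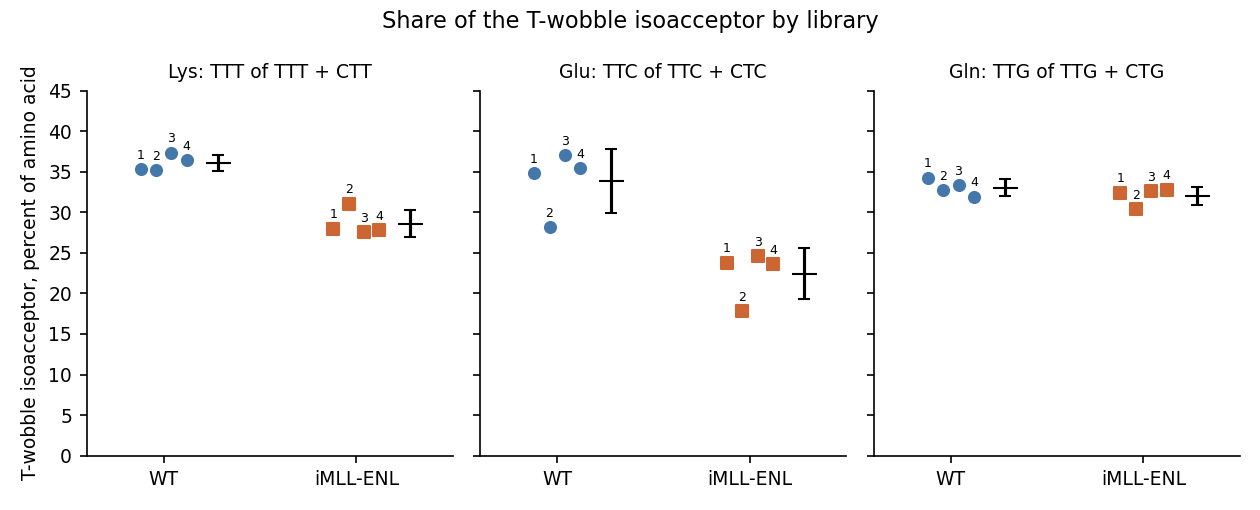
Share of the T-wobble isoacceptor (percent of the summed RPM of both isoacceptors of the amino acid, vertical axis) in each WT (circles) and iMLL-ENL (squares) library, numbered by replicate, with mean ± SD (n = 4) beside each group. The iMLL-ENL libraries lie below all WT libraries for lysine and glutamate, at 27.6% to 31.1% and 17.8% to 24.6%, and overlap them for glutamine.

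The log2 ratio of the T-wobble to the C-wobble sum was lower in iMLL-ENL by 0.83 ± 0.19 for glutamate (SE, log2 difference -0.83) and by 0.50 ± 0.07 for lysine (log2 difference -0.50). Each had an exact two-sided permutation p of 0.0286, the smallest that 4 against 4 libraries allow, and an adjusted p over the 3 ratios of 0.0429. These tests took the libraries as unpaired. With libraries paired by replicate number, the smallest exact p of a sign-flip test is 0.125, so neither ratio could pass. For glutamine the log2 difference was -0.07 ± 0.05 (exact permutation p = 0.257, adjusted 0.257). Without WT replicate 2 the log2 differences were -0.95, -0.51 and -0.07, with adjusted exact p of 0.0429, 0.0429 and 0.314. Leaving out iMLL-ENL replicate 1, 2 or 4 ended the calls of both ratios (adjusted exact p = 0.0857), with log2 differences of -0.87 to -0.69 for glutamate and -0.55 to -0.48 for lysine.

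The shift itself was larger in glutamate than in glutamine, by 0.76 ± 0.16 log2 units (SE, log2 difference -0.76), and larger in lysine than in glutamine by 0.43 ± 0.11 (log2 difference -0.43). Both had an exact permutation p of 0.0286 and an adjusted p of 0.0429 over 3 such comparisons, which were chosen after the ratios had been seen. Neither kept an adjusted p under 0.05 when any 1 library was left out (0.0571 to 0.0857, exact). Glutamate and lysine did not differ in their shift at this threshold (log2 difference -0.33 ± 0.22, exact permutation p = 0.114), which does not show that they shifted alike.

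On the deposited scale 1 of the 6 isoacceptor sums, tRNA-Lys-CTT, passed the test, and the others had log2 fold changes of either sign. RefSeq gives these genes 72 (glutamate, glutamine) or 73 (lysine) bases, so RPM and RPM per base order them alike. In WT the order of mean level was tRNA-Glu-CTC, tRNA-Lys-CTT, tRNA-Glu-TTC, tRNA-Lys-TTT, tRNA-Gln-CTG and tRNA-Gln-TTG. In iMLL-ENL the mean of tRNA-Lys-TTT stood above that of tRNA-Glu-TTC. The libraries of these neighbours overlapped in iMLL-ENL (3885 to 4599 RPM against 3205 to 4422 RPM) and in WT (3197 to 3790 RPM against 3156 to 6582 RPM), where WT replicate 2 already had the iMLL-ENL order. Libraries also overlapped for tRNA-Lys-CTT and tRNA-Glu-TTC in WT and for tRNA-Glu-CTC and tRNA-Lys-CTT in iMLL-ENL.

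tRNA-Lys-CTT, which reads AAG, was at 6179, 6984, 5366 and 5689 RPM in WT replicates 1 to 4. In iMLL-ENL replicates 1 to 4 it was at 11853, 9833, 10971 and 10107 RPM. All 4 iMLL-ENL libraries lay above all WT libraries. The sum rose from 6055 ± 704 to 10691 ± 914 RPM (SD, n = 4), a log2 fold change of 0.82 ± 0.14 (SE) with a limma adjusted p of 0.0056 over 67 families. Of all families 44.8% were called, 26.9% higher and 17.9% lower. The call ended after TMM scaling (0.42, adjusted p = 0.066) and quantile normalization (0.46, adjusted p = 0.090).

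tRNA-Lys-TTT, which reads AAA, was at 3372, 3790, 3197 and 3258 RPM in WT and at 4599, 4431, 4177 and 3885 RPM in iMLL-ENL. The groups did not overlap, but the narrower gap did not pass the test. The log2 fold change was 0.33 ± 0.12 with a limma adjusted p of 0.052, and it was called without WT replicate 2 (0.38, adjusted p = 0.016) and without iMLL-ENL replicate 4 (adjusted p = 0.045). After TMM scaling it turned to -0.07 (adjusted p = 0.78).

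tRNA-Glu-CTC, which reads GAG and was the most abundant of the 6, was at 11967, 8057, 11210 and 9808 RPM in WT. In iMLL-ENL it was at 14165, 14796, 11571 and 12260 RPM. Only WT replicate 1 reached into the iMLL-ENL range. Its log2 fold change of 0.37 ± 0.18 did not pass the test (limma adjusted p = 0.11), and it turned to -0.03 after TMM scaling (adjusted p = 0.94).

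tRNA-Glu-TTC, which reads GAA, was at 6396, 3156, 6582 and 5375 RPM in WT and at 4422, 3205, 3773 and 3787 RPM in iMLL-ENL. WT replicate 2 was the lowest of all 8 libraries, and the other WT libraries lay above every iMLL-ENL library. With all libraries the log2 fold change was -0.45 ± 0.24 (limma adjusted p = 0.14). Without WT replicate 2 it was -0.69 (limma adjusted p = 4.3e-05). After TMM scaling it was -0.85 (adjusted p = 0.028), where 19 of all 67 families were called lower and 3 higher.

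The glutamine tRNAs were far lower in level, and neither passed the test on the deposited scale. tRNA-Gln-CTG, which reads CAG, was at 392, 330, 335 and 368 RPM in WT and at 342, 279, 322 and 342 RPM in iMLL-ENL. tRNA-Gln-TTG, which reads CAA, was at 204, 160, 168 and 172 RPM in WT and at 164, 122, 155 and 167 RPM in iMLL-ENL. Both ranges overlapped between the groups, and iMLL-ENL replicate 2 was the lowest library in each. Their log2 fold changes were -0.15 ± 0.11 (limma adjusted p = 0.28) and -0.22 ± 0.14 (0.22). After TMM scaling both were called lower, at -0.55 (adjusted p = 0.0067) and -0.61 (0.011). On that scale 18 of all 48 tRNA isoacceptors were called lower and 1 higher, with a median log2 fold change of -0.35.

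**Figure D2:**
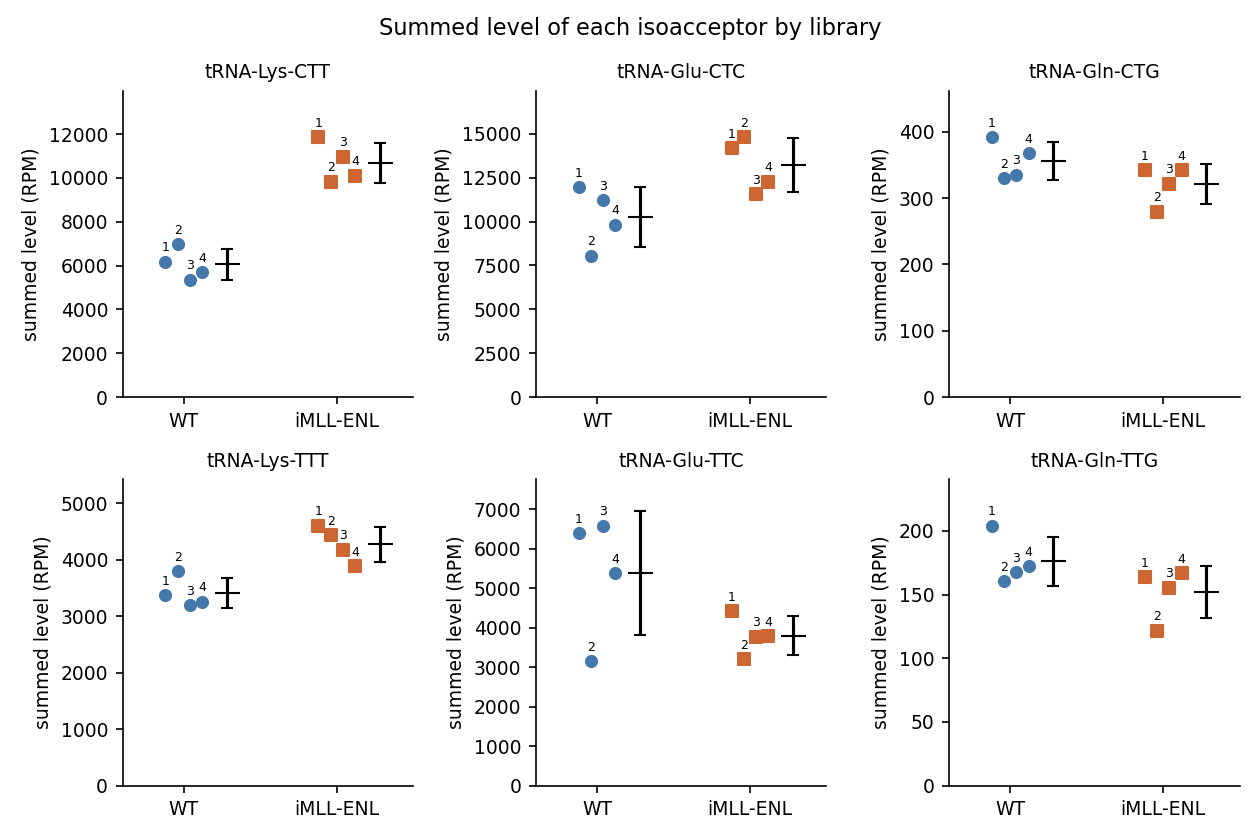
Summed level (RPM, vertical axis from 0) of the 6 isoacceptors in each WT (circles) and iMLL-ENL (squares) library, numbered by replicate, with mean ± SD (n = 4) beside each group. tRNA-Lys-CTT goes from 5366 to 6984 RPM in WT to 9833 to 11853 RPM in iMLL-ENL, and WT replicate 2 is the lowest WT library for both glutamate tRNAs.

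The scale on which libraries are compared changed the values of all 6 sums. For the 633 tested rows as a whole the median log2 fold change was 0.31 as deposited and -0.08 after TMM scaling. It was 0.09 after quantile normalization, 0.20 with the median of the tested rows centred, 0.62 with the total taken without the 5 most abundant rows and 0.59 with each library scaled to its row total. tRNA-Lys-CTT was above 0 and tRNA-Glu-TTC below 0 under all of these scalings, while the 4 other isoacceptors changed sign under at least 1. Among sums on the deposited scale, the median log2 fold change was 0.24 over all 67 families and 0.05 over the 48 tRNA isoacceptors. Beside these, tRNA-Lys-TTT was at 0.33 and tRNA-Glu-CTC at 0.37.

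**Figure D3:**
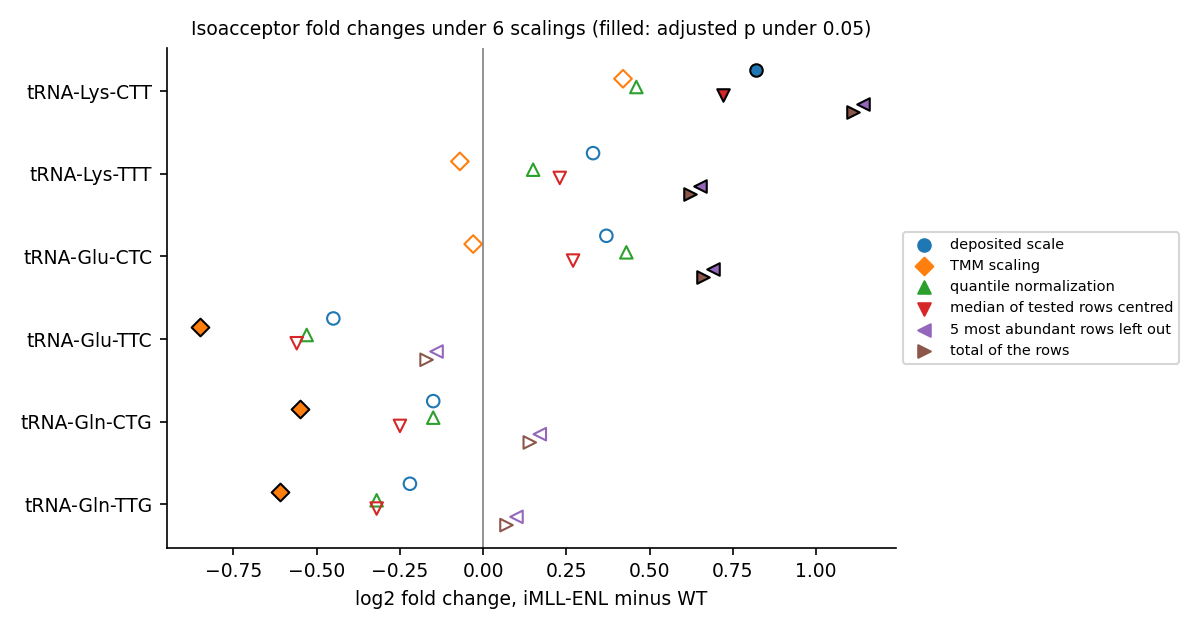
Log2 fold change (iMLL-ENL minus WT, horizontal axis) of each isoacceptor sum on the deposited scale and under 5 other scalings, with filled symbols for a limma adjusted p under 0.05. tRNA-Lys-CTT stays right of 0 (0.42 to 1.14) and tRNA-Glu-TTC left of it (-0.85 to -0.14). A scaling by 1 factor per library shifts both partners of an amino acid alike, so their order is fixed under all of these but quantile normalization.

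All 3 amino acids together took 8.88% ± 1.48 of the reads of all tRNA rows in the WT group (SD, n = 4) and 15.2% ± 1.1 in the iMLL-ENL group, with no overlap between the groups. Without WT replicate 2 the WT share was 9.58% ± 0.55. For the tRNA rows of other amino acids the sum was 267002 ± 36573 RPM among WT libraries and 180789 ± 13364 RPM among iMLL-ENL ones. With WT replicate 2 left out, the WT sum of those rows was 252683 ± 27860 RPM. Lysine tRNAs summed to 9459 ± 967 and 14964 ± 1108 RPM, glutamate tRNAs to 15638 ± 3259 and 16994 ± 1546 RPM, and glutamine tRNAs to 532 ± 47 and 473 ± 50 RPM. The direction for glutamate turned on WT replicate 2, without which the WT mean was 17113 ± 1695 RPM (SD, n = 3). These sums were not tested.

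By gene copy, 52 of the 55 rows passed the filter on low values. Of the 52, 17 were called, 15 higher and 2 lower in iMLL-ENL, against 28.9% of all 633 tested rows called, 20.4% higher and 8.53% lower. Tested members had a median log2 fold change of 0.35, against 0.31 over all tested rows and -0.04 over the 226 tested tRNA rows of other amino acids. The groups did not overlap for 21 tested members that were higher and 2 that were lower, beside 27.2% and 11.4% of all tested rows. Without WT replicate 2 the calls were 20 higher and 8 lower, and they were 11 higher and 0 lower when either WT replicate 1 or iMLL-ENL replicate 3 was dropped. The share of all tested rows called is not given for these analyses. After TMM scaling the split turned to 2 higher and 19 lower, beside 5.53% and 20.4% of all rows. Copies of 1 isoacceptor are similar genes whose reads can be hard to assign, so these counts are not counts of independent genes.

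**Figure D4:**
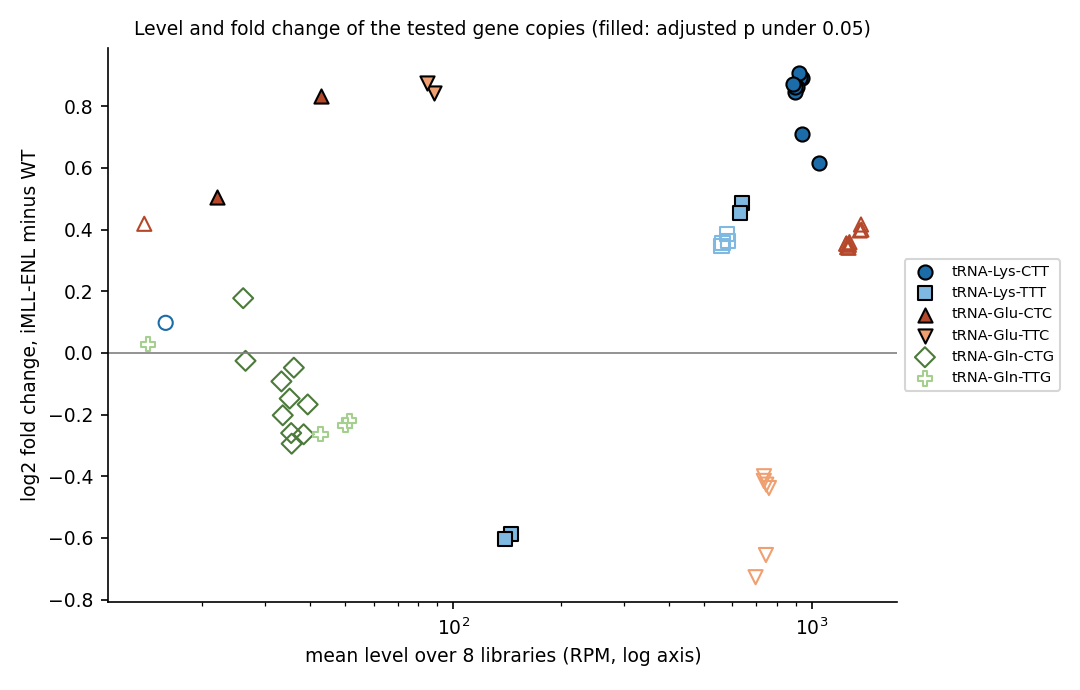
Mean level over the 8 libraries (RPM, log axis) against log2 fold change (iMLL-ENL minus WT) of the 52 tested gene copies, with filled symbols for a limma adjusted p under 0.05. The abundant copies of an isoacceptor sit together, while the low copies of tRNA-Lys-TTT and tRNA-Glu-TTC sit on the other side of 0 from the abundant ones.

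In tRNA-Lys-CTT 9 copies carried 99.8% of the reads, each at 627 to 829 RPM on average in WT and 1146 to 1269 RPM in iMLL-ENL. All 9 were called higher, at log2 fold changes of 0.61 to 0.91 and limma adjusted p of 0.0080 to 0.025. tRNA1035-LysCTT, the most abundant, was at 863, 943, 759 and 753 RPM in WT and at 1416, 1137, 1300 and 1223 RPM in iMLL-ENL. It had the smallest change of the 9 (0.61 ± 0.16). Its call ended in 5 of 8 analyses that left out 1 library, with adjusted p up to 0.077.

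tRNA999-LysCTT had the largest change (0.91 ± 0.16, limma adjusted p = 0.0080), from 656, 734, 544 and 625 RPM to 1326, 1104, 1233 and 1128 RPM. The groups were far apart in both of these copies. tRNA1053-LysCTT, with a mean of 15.2 ± 2.0 RPM for WT and 16.4 ± 2.6 RPM for iMLL-ENL, was not called (0.10 ± 0.20, adjusted p = 0.75). tRNA1514-LysCTT, at 2.21 to 5.26 RPM, was below the filter. None of the 9 calls held after TMM scaling or quantile normalization, and that of tRNA1035-LysCTT also ended with median centring (limma adjusted p = 0.066).

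tRNA-Lys-TTT held copies that were called in opposite directions. The 6 copies at 300 RPM or more carried 92.5% of its reads, at 454 to 607 RPM in single WT libraries and 576 to 781 RPM in iMLL-ENL. For each of the 6 taken alone the groups did not overlap, with log2 fold changes of 0.35 to 0.49. Of these, tRNA107-LysTTT and tRNA485-LysTTT were called (limma adjusted p = 0.029 and 0.043), and without WT replicate 2 all 6 were. The call of tRNA107-LysTTT held in 3 of 8 analyses that left out 1 library (adjusted p up to 0.084) and that of tRNA485-LysTTT in 1. Neither call held after TMM scaling, quantile normalization or median centring.

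The other two tested copies, tRNA1280-LysTTT and tRNA83-LysTTT, fell. tRNA1280-LysTTT was at 173, 157, 169 and 173 RPM in WT and at 144, 121, 85.2 and 98.9 RPM in iMLL-ENL (log2 fold change -0.60 ± 0.17, limma adjusted p = 0.030). tRNA83-LysTTT, named after its values were seen, was at 176, 166, 172 and 177 RPM and then at 147, 121, 96.6 and 101 RPM (-0.59 ± 0.15, adjusted p = 0.025). Every iMLL-ENL library was below every WT library in both, and WT replicate 2 lay close to the other WT libraries.

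Both were called after TMM scaling (log2 fold changes -1.0 and -0.98, adjusted p = 0.0048 and 0.0047). Both lost the call with the total taken without the 5 most abundant rows (-0.29 and -0.27) and with each library scaled to its row total (-0.32 and -0.30). Neither was called when WT replicate 1, iMLL-ENL replicate 3 or iMLL-ENL replicate 4 was dropped (adjusted p 0.054 to 0.084), and tRNA1280-LysTTT was not called without WT replicate 3 or iMLL-ENL replicate 2 either (0.060 and 0.0504). Over the 8 libraries the 2 copies correlated with each other at 0.991 and with the 6 abundant copies at -0.77 to -0.62. These correlations of log2 levels are a description over libraries that share a depth and a group. tRNA89-LysTTT, at 1.26 to 2.73 RPM among WT libraries and 2.84 to 4.46 RPM among iMLL-ENL ones, was below the filter.

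In tRNA-Glu-TTC the abundant copies had log2 fold changes below 0 and the low copies above 0. Its 6 copies at 300 RPM or more carried 96.2% of its reads. tRNA339-GluTTC, the most abundant, was at 1020, 524, 1077 and 916 RPM in WT and at 731, 528, 636 and 636 RPM in iMLL-ENL (log2 fold change -0.44 ± 0.24, limma adjusted p = 0.19). tRNA364-GluTTC, the lowest in fold change, was at 1117, 479, 1083 and 850.5 RPM and then at 596, 412, 508 and 524 RPM (-0.73 ± 0.28, adjusted p = 0.074). In both copies WT replicate 2 lay inside or next to the iMLL-ENL range and the other WT libraries above it.

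None of the 6 passed the limma test with all libraries, at log2 fold changes of -0.73 to -0.40, and 2 had an unadjusted p under 0.05. With sample quality weights 6 were called lower, where 36 of all 52 tested members were called (20 higher, 16 lower). The share of all tested rows called with weights is not given. Without WT replicate 2 all 6 were called lower, at -0.996 to -0.63 and adjusted p of 0.00048 to 0.0051. After TMM scaling all 6 were called lower too, at -1.13 to -0.80. None of the 6 was called after quantile normalization or median centring. The same held with the total taken without the 5 most abundant rows and with each library scaled to its row total. Leaving out any library other than WT replicate 2 gave no call either.

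The remaining copies of tRNA-Glu-TTC, tRNA754-GluTTC and tRNA286-GluTTC, rose. tRNA754-GluTTC was at 68.3, 55.3, 60.7 and 52.8 RPM in WT and at 123, 117, 97.6 and 101 RPM in iMLL-ENL (log2 fold change 0.88 ± 0.14, limma adjusted p = 0.0075). tRNA286-GluTTC, named after its values were seen, was at 68.9, 53.8, 74.2 and 56.1 RPM and then at 129, 118, 98.3 and 111 RPM (0.84 ± 0.16, adjusted p = 0.0082). The groups were apart in both, and both kept the call without each library in turn. tRNA754-GluTTC also kept it under all 5 other scalings, and tRNA286-GluTTC under 4, the exception being TMM scaling (0.45, adjusted p = 0.087). Their correlation with the 6 abundant copies was -0.57 to -0.30.

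**Figure D5:**
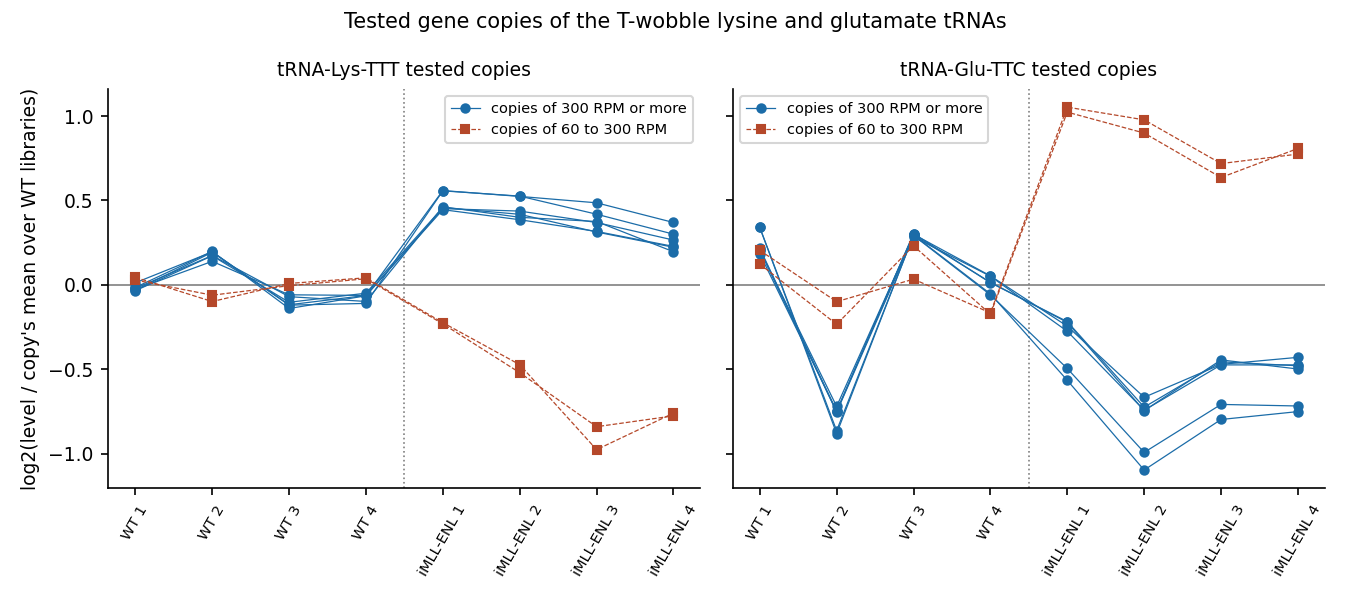
Level of each tested copy of tRNA-Lys-TTT and tRNA-Glu-TTC in the 8 libraries, as log2 of the level over that copy's mean in the WT libraries (thin lines only join the points of a copy). In tRNA-Lys-TTT the 6 abundant copies (circles) lie above 0 in iMLL-ENL and the 2 lower ones (squares) below it, and in tRNA-Glu-TTC the positions are exchanged, with WT replicate 2 low for the abundant copies.

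In tRNA-Glu-CTC 9 copies carried 99.3% of the reads, each at 1098 to 1189 RPM on average in WT and 1395 to 1563 RPM in iMLL-ENL. None of the 9 passed the test (log2 fold changes 0.34 to 0.42, limma adjusted p 0.11 to 0.18), and 0 had an unadjusted p under 0.05. With the total taken without the 5 most abundant rows 3 were called higher, and with each library scaled to its row total 9 were. tRNA90-GluCTC, the most abundant, was at 1414, 906, 1295 and 1140 RPM and then at 1678, 1754, 1365 and 1429 RPM. tRNA1007-GluCTC, with the smallest change (0.34 ± 0.18), was at 1312, 890, 1214 and 1057 RPM and then at 1526, 1566, 1222 and 1324 RPM. In both, WT replicate 2 was the lowest library and WT replicate 1 lay within the iMLL-ENL range.

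Among the 3 low copies tRNA719-GluCTC rose from 29.3, 32.5, 31.4 and 28.4 RPM to 52.1, 62.0, 50.04 and 56.0 RPM (log2 fold change 0.83 ± 0.13, limma adjusted p = 0.0052). The groups were well apart, and the call held in each of the 5 other scalings and whichever library was dropped. tRNA892-GluCTC was called too (0.51 ± 0.16, adjusted p = 0.042), a call that ended in 7 of 8 analyses that left out 1 library. It also ended after TMM scaling (0.12, adjusted p = 0.71), quantile normalization (adjusted p = 0.22) and median centring (0.086). tRNA969-GluCTC, at 8.97 to 17.7 RPM over all libraries, was not called (0.42 ± 0.21, adjusted p = 0.15). Without WT replicate 2 all 3 low copies were called higher (limma adjusted p 0.00069 to 0.022). Dropping that library was the only omission that kept the call of tRNA892-GluCTC (adjusted p = 0.0080).

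None of the 14 tested glutamine copies was called by limma on the deposited scale, where their log2 fold changes ran from -0.29 to 0.18. At an unadjusted p under 0.05 the count was also 0, with a lowest p of 0.077 by limma. With sample quality weights 8 were called lower, where 36 of all 52 tested members were called (20 higher, 16 lower). The share of all tested rows called with weights is not given. tRNA342-GlnCTG, the most abundant for its anticodon, was at 47.2, 40.4, 36.7 and 42.5 RPM in WT and at 39.6, 32.4, 37.1 and 38.8 RPM in iMLL-ENL. tRNA297-GlnCTG had the lowest change (-0.29 ± 0.15, adjusted p = 0.15) and tRNA87-GlnCTG the highest (0.18 ± 0.16, adjusted p = 0.41).

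tRNA114-GlnTTG, the most abundant for its anticodon, was at 63.0, 51.6, 52.8 and 53.1 RPM and then at 53.7, 36.5, 49.2 and 50.6 RPM. The groups overlapped in each of these copies. tRNA1493-GlnTTG (-0.26 ± 0.15) and tRNA1007-GlnTTG (0.03 ± 0.20) were the extremes of tRNA-Gln-TTG. tRNA630-GlnTTG, at 4.10 to 7.14 RPM, was below the filter. After TMM scaling 8 of 10 tRNA-Gln-CTG and 3 of 4 tested tRNA-Gln-TTG copies were called lower, where tRNA87-GlnCTG turned to -0.21 and tRNA1007-GlnTTG to -0.35.

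The authors' deposited table, whose fold changes are on the authors' own scale, calls 4 of the 55 rows at an FDR under 0.05, all lower, beside 4.56% higher and 11.9% lower over its 964 rows. They are tRNA364-GluTTC (log2 fold change -1.19, FDR 0.023), tRNA1555-GluTTC (-1.12, FDR 0.032), tRNA1280-LysTTT (-0.98, FDR 0.039) and tRNA83-LysTTT (-0.97, FDR 0.039), all T-wobble genes. The 6 abundant tRNA-Lys-TTT copies are at -0.05 to 0.09 there, with FDR from 0.93 to 0.99. Glutamine copies of both anticodons are below 0 without a call, at -0.70 to -0.20 for tRNA-Gln-CTG and -0.66 to -0.36 for tRNA-Gln-TTG. In the authors' deposited table the 9 abundant tRNA-Lys-CTT copies are at 0.22 to 0.51 with FDR from 0.34 to 0.75. The other 4 abundant tRNA-Glu-TTC copies are below 0 there with FDR up to 0.10, and tRNA754-GluTTC and tRNA286-GluTTC are at 0.49 and 0.44.

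Elongator is known to act on T-wobble tRNAs of several other amino acids. The isoacceptors counted here were taken by anticodon alone, so they may include some that Elongator does not act on. Of 11 other isoacceptors with T at the wobble position 2 were called higher and 3 lower, with a median log2 fold change of 0.07, and of 10 C-wobble partners 2 were higher and 3 lower, with a median of -0.13. Over all 67 families the median was 0.24. The T-wobble to C-wobble log2 ratio of these 10 pairs was lower with no overlap in 3 (Arg-TCT to Arg-CCT at -1.48, Arg-TCG to Arg-CCG at -1.93, Gly-TCC to Gly-CCC at -0.76) and higher with no overlap in 2 (Ser-TGA to Ser-CGA at 0.60, Leu-TAG to Leu-CAG at 0.62). The other 5 overlapped, and the median log2 difference over the 10 was -0.03. Without WT replicate 2 the pairs were 4 lower, 3 higher and 3 overlapping, with a median of -0.01. Arg-TCT to Arg-CCT was then at -0.89, and Ala-TGC to Ala-CGC (-0.42) and Val-TAC to Val-CAC (1.09) no longer overlapped. These ratios are a description and were not tested.

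RefSeq lists 62 genes with symbols of these 3 amino acids on GRCm38, of which 14 lie on chromosome 13, 11 on chromosome 3 and 8 on chromosome 1. It has 12 genes for Glu-CTC, 8 for Glu-TTC and 10 for Gln-CTG, the same numbers as the rows. The numbers differ for Gln-TTG (6 genes, 5 rows), Lys-CTT (24 genes, 11 rows) and Lys-TTT (2 genes, 9 rows). The lysine ratio rests on the anticodons in the row names. The names of the rows hold no chromosome, so rows and genes were not paired, and no position or sequence is given for a copy.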

How the data were processed

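The members, gene lists and tests were chosen with earlier results of these data known. Small RNA was measured in 4 WT and 4 iMLL-ENL libraries, grouped by their titles, with QIAseq miRNA library preparation per the labels' protocols. The authors deposited 1 table with an RPM column per library; it is labelled TPM, but 98.3% to 100% of the values under 40 RPM are whole multiples (within 0.0055 RPM) of 1 step per library, 0.108 to 0.169 RPM, so values were not divided by length. Taking a step as 1 read, the scale stands for 5914010 to 9273857 reads, and 3 reads lie at 0.32 to 0.51 RPM (counting error only). Per row, the same deposited table holds the authors' own log2 fold change, p-value and FDR. The build was GRCm38 per the submitters' processing notes; the aligner, the counting, the annotation and the use of multiply mapped reads and molecular indexes were not given in the sources used here.

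Rows were compared with limma 3.58.1 (R 4.3.3, statmod 1.5.0) on log2(RPM + 1), trended and robust, two-sided, over the 633 of 964 rows with 4 libraries at 10 RPM. Sums of copies were fitted the same way over 67 families without a filter. On this log2(RPM + 1) scale the fold of a low row is understated. The limma model was also run on simulated data, but the outcome is not given here, so that run lends no support to these calls. Ratios used exact permutation tests over 70 assignments (absolute difference of means; Python 3.11.15, numpy 2.4.6, pandas 2.3.3). Copies named are, per isoacceptor, the most abundant and those with the largest and smallest log2 fold change among tested copies; every other copy named was chosen after its values were seen. Copies were grouped by mean level (300 and 60 RPM) after the levels were seen. Alternatives were 5 scalings, pseudocount, filter, model, sums, replicate block and each library left out. The labels give no batch. Copies may share reads, and how the authors split such reads is unknown.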

Additional observations from a re-analysis of the deposited data

Results flagged for a closer look

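In a group of 4, a library was singled out where its gap to the nearest other library, as a share of the group's range, exceeded Dixon's critical value for 4 samples. Of 52 groups checked, 4 held such a library, and chance alone gives about 1 in 20. In iMLL-ENL replicate 2 the ratio of tRNA-Lys-TTT to tRNA-Lys-CTT was 0.451, against 0.381 to 0.388 in the other iMLL-ENL libraries. The same library had a ratio of tRNA-Glu-TTC to tRNA-Glu-CTC of 0.217, against 0.309 to 0.326, so it lay nearest to WT for lysine and farthest from WT for glutamate. tRNA107-LysTTT was at 584 RPM in WT replicate 2, above 508 to 520 RPM in the other WT libraries. tRNA114-GlnTTG was at 63.0 RPM in WT replicate 1, above 51.6 to 53.1 RPM in the others.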

How the results depend on the processing

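Among the 52 tested copies, 17 were called on the deposited scale, 5 after quantile normalization (3 higher, 2 lower), 29 with each library scaled to its row total (29 higher, 0 lower) and 36 with sample quality weights (20 higher, 16 lower). Shares of all tested rows are given only for the deposited scale and TMM scaling. The other counts therefore do not show whether these copies stood out from the rest of the table. Leaving out 1 library gave 11 to 28 calls. TMM scaling kept the count near (21) but not the split (2 higher, 19 lower), and leaving the 5 most abundant rows out gave 23 higher and 0 lower, against 15 and 2. For the sums, TMM scaling gave tRNA-Lys-CTT 0.42 and, past the threshold, tRNA-Glu-TTC -0.85, tRNA-Gln-CTG -0.55 and tRNA-Gln-TTG -0.61, and turned tRNA-Lys-TTT to -0.07 and tRNA-Glu-CTC to -0.03. Of all 67 families TMM scaling called 3 higher and 19 lower. Quantile normalization left tRNA-Lys-CTT at 0.46. With the 5 most abundant rows left out, tRNA-Lys-TTT (0.65) and tRNA-Glu-CTC (0.69) passed and tRNA-Gln-CTG and tRNA-Gln-TTG turned to 0.17 and 0.10. Scaled to the row total these were 0.62, 0.66, 0.14 and 0.07. tRNA-Lys-TTT also passed without a trend (0.33) and with sample quality weights (0.38), as did tRNA-Glu-TTC with weights (-0.64). Leaving out 1 library gave 0.77 to 0.89 for tRNA-Lys-CTT, 0.29 to 0.38 for tRNA-Lys-TTT, 0.26 to 0.45 for tRNA-Glu-CTC, -0.69 to -0.34 for tRNA-Glu-TTC, -0.19 to -0.08 for tRNA-Gln-CTG and -0.26 to -0.11 for tRNA-Gln-TTG, and log2 ratio differences of -0.55 to -0.47 (lysine), -0.95 to -0.69 (glutamate) and -0.09 to -0.03 (glutamine). The cause of these changes was not tested.

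Of the 52 tested copies, 15 turned sign under TMM scaling, 12 with the 5 most abundant rows left out, 11 scaled to the row total and 0 to 2 under each other alternative. Those named by the rule for naming copies were these. tRNA1053-LysCTT was at -0.28 (TMM), -0.23 (quantile) and -0.01 (median centred). tRNA90-GluCTC and tRNA1007-GluCTC were at -0.0001 and -0.06 (TMM), and tRNA87-GlnCTG at -0.21 (TMM). With the 5 most abundant rows left out, and scaled to the row total, tRNA342-GlnCTG was at 0.14 and 0.11, tRNA114-GlnTTG at 0.09 and 0.06 and tRNA1493-GlnTTG at 0.05 and 0.02, and tRNA297-GlnCTG at 0.02 in the first. tRNA1007-GlnTTG was at -0.35 (TMM), -0.31 (quantile), -0.07 (median centred), -0.09 (weights) and ran from -0.03 to 0.12 with 1 library left out, below 0 without WT replicate 3 (-0.01), WT replicate 4 (-0.01) and iMLL-ENL replicate 4 (-0.03).

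The labels give no shared source for equal replicate numbers. The numbers were not taken as pairs because 1 of the 4 correlations between deviations of same-numbered libraries was below 0 (0.389, 0.286, -0.133 and 0.420). These 4 correlations do not settle whether the numbers are pairs. As a hint from the data that some numbers go together, 3 of 4 libraries of each group correlated best with their own number. With a replicate block 18 copies were called (14 higher, 4 lower) and no call of a sum changed. The call of tRNA892-GluCTC ended (adjusted p = 0.061), and tRNA364-GluTTC and tRNA1555-GluTTC were called lower. For the ratios the replicate block is a sign-flip test whose smallest exact p is 0.125, so -0.5 (lysine) and -0.83 (glutamate) could not pass (adjusted exact p = 0.188). A count test was not run, since the smallest values did not show in every library what 1 read is worth.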
